A study of Mus musculus with 4 samples.

Results

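Voltage-gated channels and ion pumps were examined at their translation initiation sites in cultured mouse cortical neurons. The set was chosen by gene symbol alone: potassium channels and their auxiliary subunits (Kcn), calcium channel pores and auxiliary subunits (Cacna and Cacnb, without Cacng), sodium channels (Scn), HCN channels, chloride channels and exchangers (Clcn), TRP channels (Trpc, Trpm and Trpv), the sodium pump (Atp1a and Atp1b) and the calcium pumps (Atp2a, Atp2b and Atp2c). It held 67 of the 6352 transcripts measured, 1 for each gene. There were 27 potassium channel genes, 10 calcium channel genes, 6 sodium channel genes, 6 sodium pump genes, 6 calcium pump genes, 4 HCN genes, 4 Clcn genes and 4 genes with a TRP symbol. One of the last, Trpc4ap, encodes an adaptor of a ubiquitin ligase and no channel.

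Sodium pumps exchange sodium for potassium at the cost of ATP, and the gradients they build drive nearly every other current of a neuron. Voltage-gated sodium channels open the action potential, potassium channels end it and set the resting potential, and calcium channels couple it to transmitter release and gene expression. Calcium pumps then clear the calcium from the cytosol into the extracellular space, the endoplasmic reticulum or the Golgi. The pores and pump subunits are membrane proteins made at the endoplasmic reticulum, while some auxiliary subunits of channels are cytosolic. Many pores and catalytic subunits depend on an auxiliary subunit to reach their place.

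Ribosome footprints were sequenced from primary cultured cortical neurons that had received harringtonine (5 µg/ml) for 3 min, which holds ribosomes where translation starts. There were 4 libraries: KO SC and KO TTC from neurons labelled Ltn1 KO, and WT SC and WT TTC from neurons labelled WT. Ltn1 encodes the ubiquitin ligase that marks nascent chains on stalled ribosomes for degradation, and Ttc3 encodes another ubiquitin ligase. By their titles the SC libraries received Ttc3 RNAi and the TTC libraries scrambled RNAi, but the letters of these codes spell the opposite, so the libraries are named here by genotype label and code, and no direction of the RNAi is read from them. The comparisons were KO against WT within each code and SC against TTC within each genotype. No measure of mRNA level was used beside the footprints. A difference in initiation and a difference in the amount of mRNA therefore cannot be told apart here. There was 1 library for each condition and no replicate, and the labels do not give the number of animals or cultures behind each, so every interval below is a 95% interval for counting error only, and every test compares libraries, not conditions.

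The libraries held 1460425 to 3655827 reads, of which 6.06% to 6.85% lay at the listed sites. Values are RPM, the reads at the initiation site scaled by the total reads of the library, and a floor of 3 reads corresponded to 1.12 RPM in KO SC, 1.43 RPM in WT SC, 0.821 RPM in KO TTC and 2.05 RPM in WT TTC. Ltn1 itself had 37 reads in KO SC and 10 in WT SC, and 0 in KO TTC and 2 in WT TTC. The SC pair thus went against its labels, and since the sources used here do not give the deleted part of the gene, these reads check neither label; KO and WT stand for the labels throughout. Ttc3 had 0 to 3 reads in each library, too few to check the RNAi. All 9 neuronal markers had reads in all 4 libraries, with summed levels of 1995 RPM in KO SC, 1836 RPM in WT SC, 1788 RPM in KO TTC and 1743 RPM in WT TTC. The 8 astrocyte markers measured summed to 114 RPM in KO SC, 193 RPM in WT SC, 175 RPM in KO TTC and 235 RPM in WT TTC. Of these, 6 had reads in all 4 libraries, and Aqp4 was at 0 in KO SC and WT SC. The 8 oligodendrocyte lineage markers summed to 12 RPM in KO SC, 38.6 RPM in WT SC, 46.5 RPM in KO TTC and 93.8 RPM in WT TTC, with 4 of them read in all 4 libraries and Mbp at 0 in KO SC. Glial marker sums were thus lower in KO than in WT within each code and lower in SC than in TTC within each genotype, and no microglial or endothelial marker of the lists was measured. In bulk samples such as these, fewer cells of a type and less RNA per cell cannot be told apart.

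Many channel genes gave few footprints, while the sodium pump gave many. Reads were present in all 4 libraries for 36 genes and in some of them for 22. The other 9 genes, or 13.4% of the set against 6.25% of all transcripts, had 0 reads in every library: Cacna1c, the pore of an L-type calcium channel of the heart and brain, the potassium channel genes Kcna4, Kcnab1, Kcnh3, Kcnip4, Kcnk10, Kcnn2 and Kcnq5, and Trpc1. For these genes the two-sided 95% Poisson interval of 0 reads reached 1.38 RPM in KO SC, 1.76 RPM in WT SC, 1.01 RPM in KO TTC and 2.53 RPM in WT TTC, somewhat above the floors of 3 reads, as for Cacna1c. Other start sites of the same genes were not analysed here. A mean of at least 5 RPM was reached by 21 genes, or 31.3%, against 36.4% of all transcripts. The set's genes spanned a median of 58108 bp of the genome, against 28187 bp for the genes of the table, and the calcium channel genes spanned a median of 274956 bp.

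**Figure D1:**
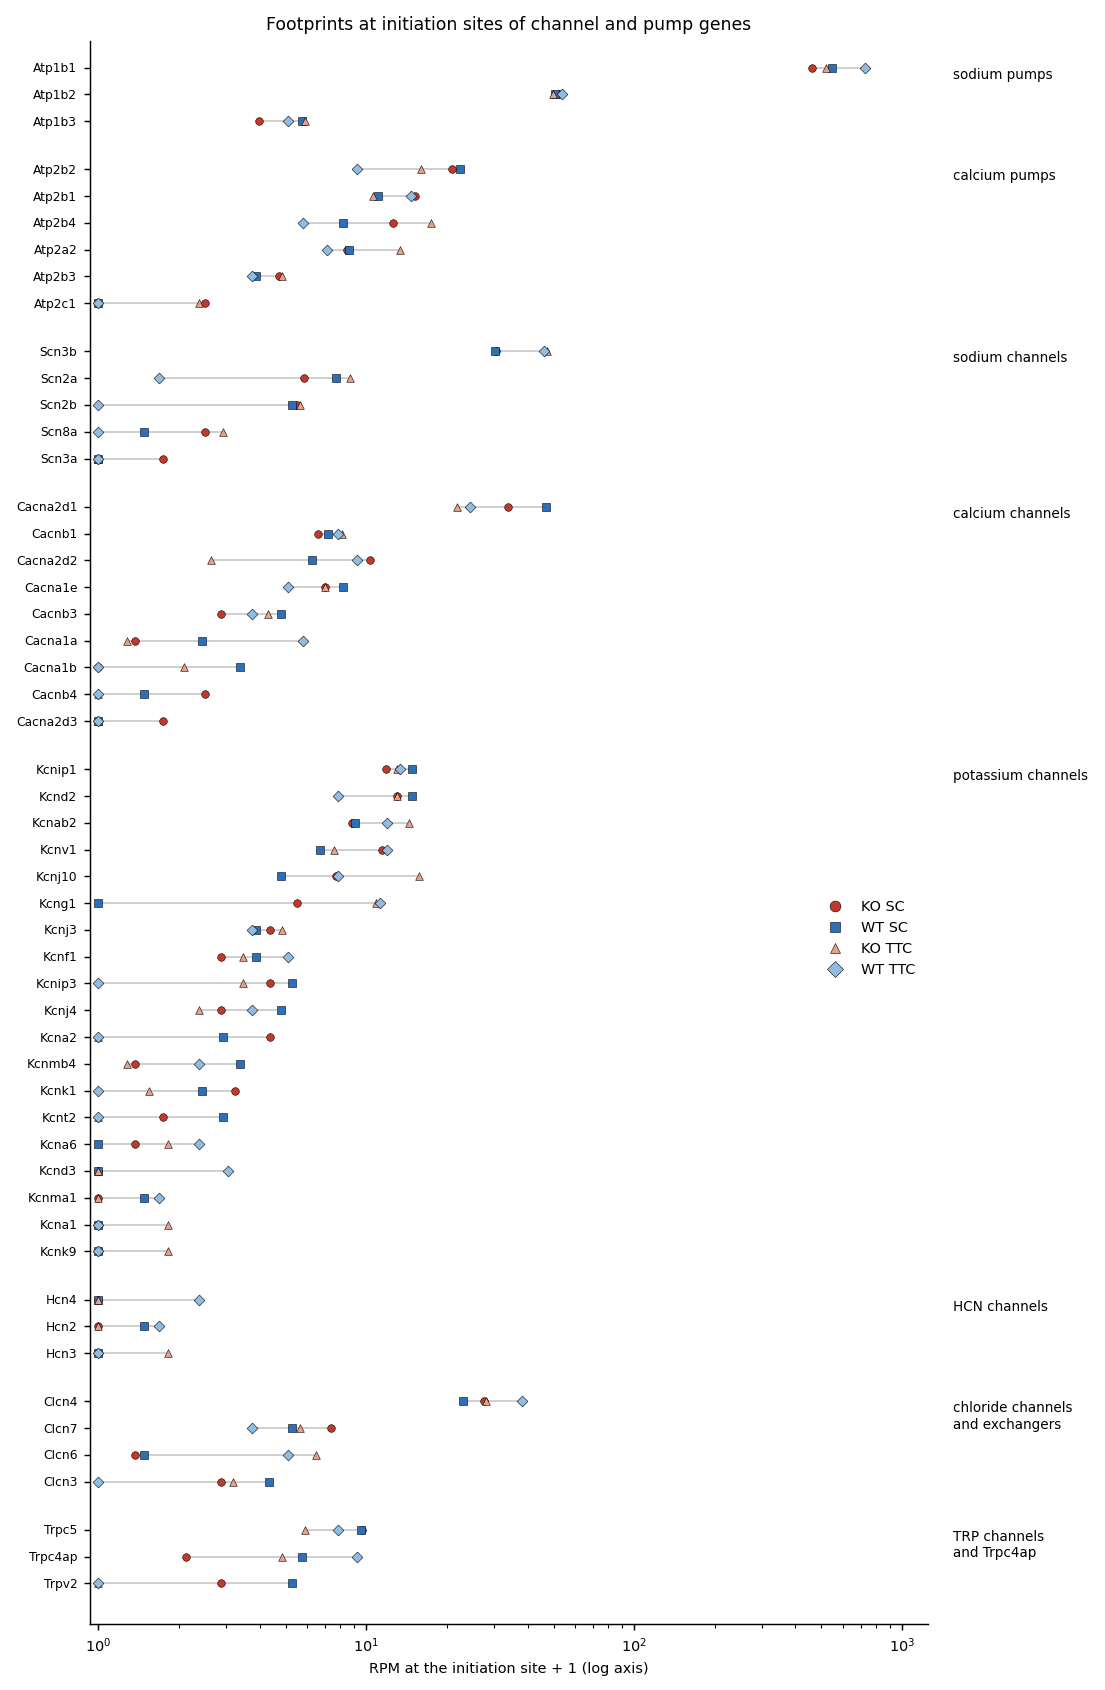
Footprints at the initiation sites of 52 of the 58 channel and pump genes with a read in at least 1 library, as RPM + 1 on a log axis, by ion group and then by mean level. Each symbol is 1 library, and the grey line joins the lowest and the highest. Atp1b1 of the sodium pump lies far to the right of all others shown, and symbols at the left edge are libraries with 0 reads.

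The set's summed level was 966 RPM (929 to 1004) in KO SC and 1055 RPM (1011 to 1100) in WT SC. It was 1021 RPM (988 to 1054) in KO TTC and 1248 RPM (1192 to 1307) in WT TTC. WT TTC was the highest and KO SC the lowest. The ratio of the sums was 0.916 for KO SC over WT SC and 0.818 for KO TTC over WT TTC, where all listed sites together gave 0.950 and 0.977. Between the codes it was 0.946 for KO SC over KO TTC and 0.845 for WT SC over WT TTC, against 0.904 and 0.931 for all listed sites. A single gene, Atp1b1, carried most of these differences, since without it the ratios were 0.992, 0.960, 1.00 and 0.973 in the same order. The medians over the 67 genes of the difference in log10(RPM + 1) were 0 in all 4 comparisons, and those over all transcripts were 0, 0, -0.0126 and 0. No library was generally high or low, as the highest value of a gene fell in KO SC for 13 genes, in WT SC for 14, in KO TTC for 17 and in WT TTC for 14.

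Single genes were compared between libraries with an exact binomial test on reads, adjusted over all transcripts with reads in either library (adjusted p below 0.05). Between KO SC and WT SC, 2 of the 53 genes with reads passed, 1 higher and 1 lower in KO SC, where 7.38% of all transcripts with reads did so (2.63% higher and 4.74% lower). Between KO TTC and WT TTC, 6 of 52 passed, 2 higher and 4 lower in KO TTC, against 7.54% of all transcripts (3.14% higher and 4.41% lower). Between KO SC and KO TTC, 7 of 54 passed, 3 higher and 4 lower in KO SC, against 16.6% of all transcripts (5.71% higher and 10.9% lower). With the libraries rescaled to the reads at the listed sites, this became 4 higher and 1 lower. The share of all transcripts called under that scaling was not counted, so neither balance of directions is read as a trait of the set. Between WT SC and WT TTC, 4 of 52 passed, 2 higher and 2 lower in WT SC, against 10.8% of all transcripts (3.82% higher and 7.02% lower). The set's shares thus lay below or not far above the background, with 3.77% of its genes with reads called between KO SC and WT SC and 11.5% between KO TTC and WT TTC. A rule with no test, a difference of at least 2-fold on the RPM + 1 scale in either direction, was met by 5, 13, 10 and 16 genes in the same order of comparisons, where 20.8%, 23.5%, 22.3% and 30.6% of all transcripts with reads met it.

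These calls rest on counting error, and reads varied more between libraries than counting allows. Among transcripts with at least 20 reads the mean Pearson statistic, which would be near 1 under counting error alone, was 3.17 to 5.12 in the 4 comparisons. A second test, edgeR's exact test, was run with the common dispersion estimated over the 4 libraries. It called 0 of the set's genes between KO SC and WT SC (background 1.42%) and 0 between KO TTC and WT TTC (background 0.826%). One gene, Cacna2d2, was called between KO SC and KO TTC (background 4.0%), and one, Kcng1, between WT SC and WT TTC (background 2.81%). The adjusted p of this second test is given below after each call as the p with dispersion.

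**Figure D2:**
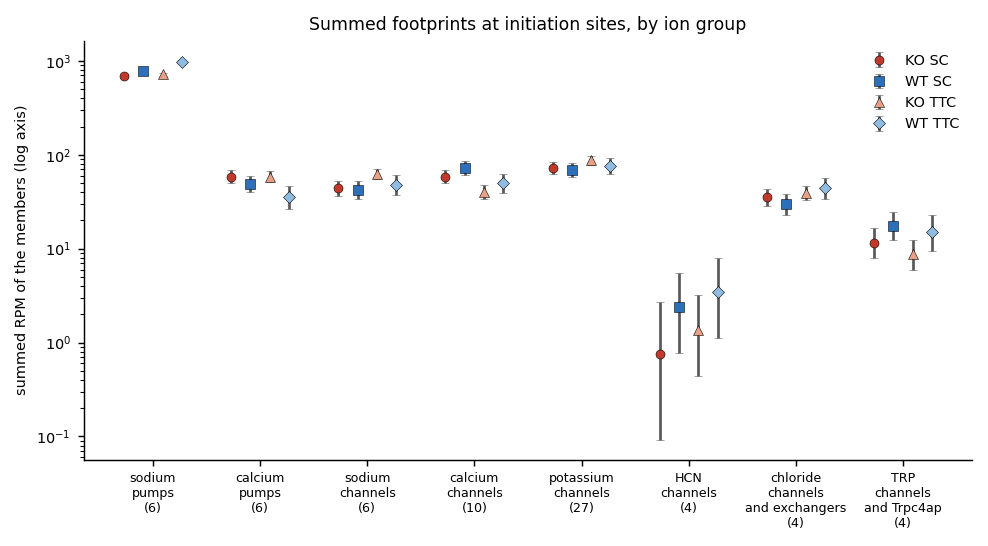
Summed RPM of the genes of each ion group in the 4 libraries, on a log axis, with the number of genes in parentheses. Bars are exact Poisson 95% intervals and cover counting error only. The sodium pumps stand at 685 to 976 RPM, and the sum of the calcium channels is higher in the SC library of each genotype than in its TTC library, in WT through Cacna2d1 alone.

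The sodium pump gave 70.7% to 78.2% of the set's reads. Its 6 genes summed to 685 RPM (654 to 717) in KO SC and 772 RPM (735 to 810) in WT SC, a ratio of 0.888 (0.830 to 0.950). They summed to 722 RPM (695 to 750) in KO TTC and 976 RPM (926 to 1028) in WT TTC, a ratio of 0.740 (0.694 to 0.790). Without Atp1b1, a choice made after seeing the data, the ratio was 0.992 (0.878 to 1.12) in the SC pair, an interval that includes 1. In the TTC pair it was then 0.813 (0.717 to 0.924). The glial marker sums given above were lower in KO of both pairs, and their part in the sodium pump sums was not tested.

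Atp1b1 (chr1:164437099-164458355, GRCm38) encodes the beta subunit that the catalytic subunit needs to fold and leave the endoplasmic reticulum. It had 461 RPM (1231 reads) in KO SC and 545 RPM (1143 reads) in WT SC, and 518 RPM (1893 reads) in KO TTC and 724 RPM (1058 reads) in WT TTC. It was lower in the library labelled KO of both pairs, and WT TTC stood above the other three. The ratio of RPM was 0.845 (0.779 to 0.916) in the SC pair by the exact binomial test (adjusted p = 0.00188, with dispersion 1.00), and rescaling to the listed sites gave 0.889 and adjusted p = 0.0599. In the TTC pair it was 0.715 (0.663 to 0.771) by the exact binomial test (adjusted p = 1.46e-14, with dispersion 0.913). Atp1b1 was also lower in WT SC than in WT TTC, with a ratio of 0.753 (0.692 to 0.819) by the exact binomial test (adjusted p = 1.21e-08, with dispersion 0.954). Between KO SC and KO TTC the ratio was 0.889 (0.827 to 0.956) by the exact binomial test (adjusted p = 0.0127, with dispersion 1.00), and this direction turned with median-of-ratios factors, which gave 1.00.

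The beta subunits Atp1b2 and Atp1b3 passed in no comparison. Atp1b2, a beta subunit that also serves in adhesion of astrocytes to neurons, had 51.3 RPM in KO SC, 49.6 RPM in WT SC, 49.0 RPM in KO TTC and 52.7 RPM in WT TTC. These values lie close together in all 4 libraries. Atp1b3, a further beta subunit, had 2.99 to 4.92 RPM.

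The calcium pumps of KO TTC summed to more than those of WT TTC, but only Atp2b4 among them passed the test in that pair. It had 60 reads in KO TTC against 7 in WT TTC, while Atp2b1 went the other way (9.57 against 13.7 RPM). The ratio of the sums without Atp2b4 was not computed. Their 6 genes summed to 58.4 RPM (49.6 to 68.3) in KO SC and 49.1 RPM (40.1 to 59.6) in WT SC, a ratio of 1.19 (0.920 to 1.54) whose interval includes 1. They summed to 58.5 RPM (51.0 to 66.9) in KO TTC and 35.6 RPM (26.6 to 46.7) in WT TTC, a ratio of 1.64 (1.21 to 2.27). Of the 6 genes, 4 had a higher value in KO SC than in WT SC and 5 in KO TTC than in WT TTC, where 38.0% and 43.7% of all transcripts did.

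Atp2b4 (chr1:133702674-133801059) encodes a pump of the plasma membrane. It had 11.6 RPM (31 reads) in KO SC and 7.16 RPM (15 reads) in WT SC, and 16.4 RPM (60 reads) in KO TTC and 4.79 RPM (7 reads) in WT TTC. Both libraries labelled KO were above both labelled WT. The TTC pair passed the exact binomial test, with a ratio of 3.42 (1.56 to 8.88, adjusted p = 0.0139, with dispersion 0.310).

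Atp2b2 (chr6:113743831-114042613), another plasma membrane pump, had 19.8 RPM (53 reads) in KO SC and 21.5 RPM (45 reads) in WT SC, and 15.0 RPM (55 reads) in KO TTC and 8.22 RPM (12 reads) in WT TTC. WT TTC was the lowest. The comparison of WT SC with WT TTC passed the exact binomial test, with a ratio of 2.61 (1.36 to 5.43, adjusted p = 0.0231, with dispersion 0.353).

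Atp2b1, which is made in most tissues, had 14.2 RPM in KO SC, 10.0 RPM in WT SC, 9.57 RPM in KO TTC and 13.7 RPM in WT TTC and passed in no comparison. Atp2a2, the pump of the endoplasmic reticulum, ranged over 6.16 to 12.3 RPM and Atp2b3 over 2.74 to 3.83 RPM. Atp2c1, the Golgi pump, had 4 reads in KO SC against 0 in WT SC, and 5 in KO TTC against 0 in WT TTC, without passing.

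Among the sodium channels, the pores had few footprints and the auxiliary beta subunits most. The group summed to 44.1 RPM (36.5 to 52.9) in KO SC and 42.5 RPM (34.1 to 52.2) in WT SC, a ratio of 1.04 (0.783 to 1.38), and to 62.6 RPM (54.8 to 71.3) in KO TTC and 47.9 RPM (37.4 to 60.6) in WT TTC, a ratio of 1.31 (0.996 to 1.73). Of the 6 genes, 5 had a higher value in KO than in WT in each pair, but only 1, in the TTC pair, passed the test.

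Scn2a (chr2:65620764-65767447), the main sodium channel pore of immature axons, had 4.86 RPM (13 reads) in KO SC and 6.68 RPM (14 reads) in WT SC, and 7.66 RPM (28 reads) in KO TTC and 0.685 RPM (1 read) in WT TTC. WT TTC alone was low. The ratio was 11.2 (1.85 to 457) in the TTC pair by the exact binomial test (adjusted p = 0.0266, with dispersion 0.189) and 0.728 (0.315 to 1.67) in the SC pair. The test of the difference between these ratios, an exact conditional test of the ratio of ratios, gave an adjusted p of 0.0688.

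Scn2b (chr9:45117876-45130070), a beta subunit that links the pore to adhesion molecules, had 12 reads (4.49 RPM) in KO SC, 9 reads (4.29 RPM) in WT SC, 17 reads (4.65 RPM) in KO TTC and 0 reads in WT TTC. Again WT TTC was the library that stood apart. The level in KO TTC was 2.26 times the floor of 3 reads in WT TTC, and the lower limit of the exact binomial interval of the ratio was 1.65, but the test did not pass after adjustment (adjusted p = 0.0652). The pore gene Scn8a, active at the axon initial segment of mature neurons, likewise had 0 reads in WT TTC, with 4 in KO SC, 1 in WT SC and 7 in KO TTC. WT TTC was the shallowest library. Of the set, 5 genes were at 0 there and nowhere else (Clcn3, Kcnip3, Kcnk1, Scn2b and Scn8a), against 2 in WT SC (Kcna6 and Kcng1) and 0 in KO SC and KO TTC. Among all transcripts, 137 were at 0 in KO SC alone, 211 in WT SC alone, 73 in KO TTC alone and 361 in WT TTC alone.

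Scn3b (chr9:40269216-40291618), a beta subunit abundant in the developing brain, had higher values in both TTC libraries than in both SC libraries. It had 29.6 RPM (79 reads) in KO SC and 29.1 RPM (61 reads) in WT SC, and 46.2 RPM (169 reads) in KO TTC and 45.2 RPM (66 reads) in WT TTC. The comparison of KO SC with KO TTC passed the exact binomial test, with a ratio of 0.639 (0.483 to 0.840, adjusted p = 0.0102, with dispersion 0.721), and with rescaling to the listed sites the ratio was 0.707 (adjusted p = 0.0666). For WT SC over WT TTC the ratio was 0.644 (0.447 to 0.926), which did not pass the exact binomial test (adjusted p = 0.0990). The ratio of ratios was 0.993. Scn3a had 2 reads in KO SC and 0 elsewhere.

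The calcium channels summed higher in SC than in TTC in both genotypes, but in WT this rested on Cacna2d1 alone. Their 10 genes summed to 58.4 RPM (49.6 to 68.3) in KO SC against 40.2 RPM (34.0 to 47.3) in KO TTC, a ratio of 1.45 (1.15 to 1.83). They summed to 72.5 RPM (61.4 to 85.0) in WT SC against 50.0 RPM (39.2 to 62.8) in WT TTC, a ratio of 1.45 (1.09 to 1.95). Between the genotypes the ratios of the sums were 0.805 (0.640 to 1.01) in the SC pair and 0.804 (0.604 to 1.08) in the TTC pair, and both intervals include 1. The genes went both ways, with 5 higher and 4 lower in KO SC than in KO TTC, and 5 higher and 3 lower in WT SC than in WT TTC. The auxiliary subunits gave ratios of 1.58 (1.23 to 2.04) for KO SC over KO TTC and 1.50 (1.09 to 2.07) for WT SC over WT TTC, while the pores gave 0.861 (0.440 to 1.64) and 1.23 (0.599 to 2.65) on far fewer reads. Without Cacna2d1, a choice made after seeing the data, the calcium channels summed to 25.4 RPM in KO SC against 19.4 RPM in KO TTC, a ratio of 1.31 (0.925 to 1.85). They then summed to 26.7 RPM in both WT SC and WT TTC, a ratio of 1.00 (0.653 to 1.55), and the other auxiliary subunits gave 0.884 (0.513 to 1.54) there.

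Cacna2d1 (chr5:15934264-16374511) encodes the alpha2delta subunit that carries channels to the cell surface and binds gabapentin. It had 32.9 RPM (88 reads) in KO SC against 20.8 RPM (76 reads) in KO TTC, and 45.8 RPM (96 reads) in WT SC against 23.3 RPM (34 reads) in WT TTC. Both SC libraries were above both TTC libraries, and in each code the library labelled KO was the lower. The ratio was 1.58 (1.15 to 2.18) for KO SC over KO TTC by the exact binomial test (adjusted p = 0.0265, with dispersion 0.721). It was 1.97 (1.32 to 3.00) for WT SC over WT TTC by the exact binomial test (adjusted p = 0.00866, with dispersion 0.474).

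Cacna2d2 (chr9:107399733-107529346), a second alpha2delta subunit, did not follow one factor. It had 9.35 RPM (25 reads) in KO SC and 5.25 RPM (11 reads) in WT SC, and 1.64 RPM (6 reads) in KO TTC and 8.22 RPM (12 reads) in WT TTC. KO TTC alone was low. KO SC exceeded KO TTC with a ratio of 5.70 (2.28 to 17.0) by the exact binomial test (adjusted p = 0.000540, with dispersion 0.0431), and this was 1 of the 2 calls that held with dispersion. KO TTC was below WT TTC with a ratio of 0.200 (0.0615 to 0.575) by the exact binomial test (adjusted p = 0.0187, with dispersion 0.284). The ratio of KO to WT was 1.78 in the SC pair, which did not pass. The genotype ratios thus differed by a factor of 8.92 by the exact conditional test of the ratio of ratios (adjusted p = 0.0257), which compares 4 libraries against counting error. It was the only gene among the set's 58 with reads to pass this test, against 2.55% of all transcripts.

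Cacna1a (chr8:84338631-84640251), the pore of the P/Q-type channel of presynaptic terminals, had 0.374 RPM (1 read) in KO SC and 1.43 RPM (3 reads) in WT SC, and 0.274 RPM (1 read) in KO TTC and 4.79 RPM (7 reads) in WT TTC. All of these except that of WT TTC are at or under 3 reads. The TTC pair passed the exact binomial test, with a ratio of 0.0571 (0.00127 to 0.444, adjusted p = 0.0193, with dispersion 0.177). Cacna1e, an R-type pore, had 4.11 to 7.16 RPM. Cacna1b, the N-type pore, had 5 reads in WT SC, 4 in KO TTC and 0 in KO SC and WT TTC.

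Of the cytosolic beta subunits, Cacnb1 had 5.61 RPM in KO SC, 6.20 RPM in WT SC, 7.11 RPM in KO TTC and 6.85 RPM in WT TTC. Cacnb3 had 1.87 to 3.82 RPM, Cacnb4 4 reads in KO SC, 1 in WT SC and 0 in both TTC libraries, and the alpha2delta gene Cacna2d3 2 reads in KO SC and 0 elsewhere. No beta subunit passed in any comparison.

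**Figure D3:**
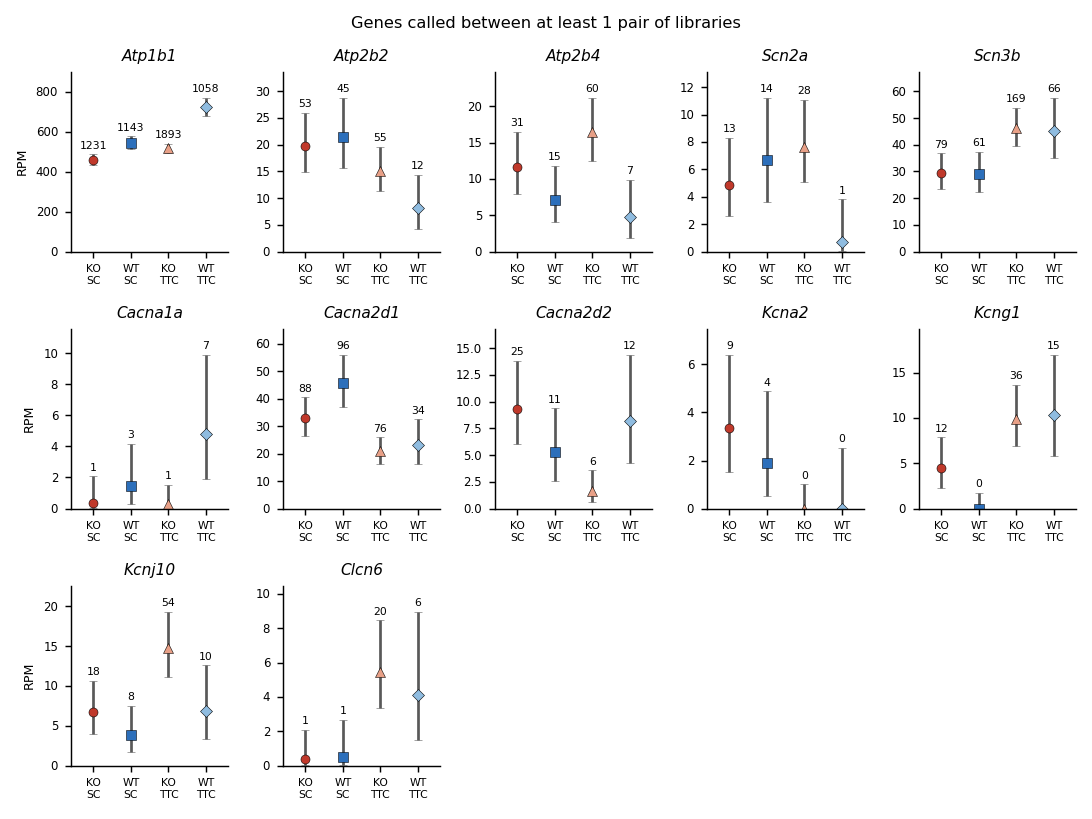
RPM at the initiation site in the 4 libraries for 12 of the 13 genes that passed the exact binomial test in at least 1 comparison, each on its own linear axis from 0. Bars are exact Poisson 95% intervals (counting error only) and the number above each bar is the reads. Atp1b1 is highest in WT TTC, Scn3b is higher in both TTC libraries and Cacna2d1 in both SC libraries, and Cacna2d2 is low in KO TTC alone.

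The potassium channels, the largest group, differed little as a whole. They summed to 72.2 RPM (62.4 to 83.1) in KO SC and 68.7 RPM (57.9 to 80.9) in WT SC, a ratio of 1.05 (0.843 to 1.31), and to 87.8 RPM (78.5 to 98.0) in KO TTC and 76.7 RPM (63.1 to 92.3) in WT TTC, a ratio of 1.14 (0.921 to 1.43). Between the codes the ratio was 0.822 (0.684 to 0.986) for KO SC over KO TTC and 0.896 (0.695 to 1.16) for WT SC over WT TTC. Of the 27 genes, 10 had reads in all 4 libraries, and 3 passed in some comparison.

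Kcng1 (chr2:168260117-168281533) encodes a subunit that forms no channel alone and modifies others of the voltage-gated family. It had 12 reads (4.49 RPM) in KO SC and 0 reads in WT SC, and 36 reads (9.85 RPM) in KO TTC and 15 reads (10.3 RPM) in WT TTC. The TTC libraries were alike, and WT SC alone had none. KO SC was higher than WT SC by the exact binomial test (adjusted p = 0.0300, with dispersion 0.108), with a lower limit of the ratio of 2.18 and a level 3.14 times the floor of 3 reads in WT SC. WT SC was lower than WT TTC by the exact binomial test (adjusted p = 8.77e-05, with dispersion 0.0138), with an upper limit of the ratio of 0.194, and this was the other call that held with dispersion. The level in WT TTC was 7.18 times the floor in WT SC. The genotype ratios in SC and TTC were not shown to differ by the exact conditional test (adjusted p = 0.0957).

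Kcna2 (chr3:107090883-107115005), a delayed rectifier pore of axons, had 9 reads (3.37 RPM) in KO SC and 4 reads (1.91 RPM) in WT SC, and 0 reads in both KO TTC and WT TTC. Its reads were confined to the SC libraries. KO SC was higher than KO TTC by the exact binomial test (adjusted p = 0.00512, with dispersion 0.0809), with a lower limit of the ratio of 2.70 and a level 4.10 times the floor of 3 reads in KO TTC, and the comparison of WT SC with WT TTC did not pass (adjusted p = 0.430, exact binomial test). The same pattern of reads in SC only was seen in Kcnt2, with 2 in KO SC and 4 in WT SC, and in Trpv2, given below.

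Kcnj10 (chr1:172341210-172374085) encodes the inward rectifier through which glia take up potassium. It had 6.73 RPM (18 reads) in KO SC against 14.8 RPM (54 reads) in KO TTC, and 3.82 RPM (8 reads) in WT SC against 6.85 RPM (10 reads) in WT TTC. KO TTC stood above the other three. KO SC against KO TTC passed the exact binomial test, with a ratio of 0.456 (0.252 to 0.790, adjusted p = 0.0222, with dispersion 0.396), and rescaling to the listed sites gave 0.504 and adjusted p = 0.0654. The sums of astrocyte and oligodendrocyte lineage markers were also lower in KO SC than in KO TTC (114 against 175 RPM and 12 against 46.5 RPM). Within each code, though, Kcnj10 was higher in KO than in WT, while both marker sums were lower in KO. Kcnj10 was highest in KO TTC and both marker sums in WT TTC. The part of glial cells in these values was not tested.

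The 3 potassium channel genes with the highest mean values passed in no comparison. Kcnip1, a calcium-binding partner of the A-type channel, had 10.8 RPM in KO SC, 13.8 RPM in WT SC, 12 RPM in KO TTC and 12.3 RPM in WT TTC. Kcnd2, the A-type pore of dendrites, had 12 RPM (32 reads) in KO SC, 13.8 RPM (29 reads) in WT SC, 12 RPM (44 reads) in KO TTC and 6.85 RPM in WT TTC. Kcnab2, a cytosolic beta subunit, had 7.86 and 8.11 RPM in KO SC and WT SC, and 13.4 and 11.0 RPM in KO TTC and WT TTC. Among the rest, Kcnv1, another subunit that forms no channel alone, ranged over 5.72 to 11.0 RPM. Kcnj3, Kcnj4, Kcnf1 and Kcnmb4 had reads in all 4 libraries and reached at most 4.11 RPM. Kcnip3 had 9 reads in each of KO SC, WT SC and KO TTC and 0 in WT TTC. Kcnk1, Kcna6, Kcnd3, Kcnma1, Kcna1 and Kcnk9 had at most 6 reads in any library.

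Among the HCN channels, which carry the hyperpolarisation-activated current, Hcn2, Hcn3 and Hcn4 had 0 reads in at least 2 libraries each. Hcn4 had 2 reads in WT TTC and 0 elsewhere, Hcn2 had 1 read each in WT SC and WT TTC and 0 in KO SC and KO TTC, and Hcn3 had 3 reads in KO TTC and 0 elsewhere. No difference in these 3 genes was detectable at this depth.

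The chloride group consisted of exchangers of endosomes and lysosomes. It summed to 35.2 RPM (28.4 to 43.0) in KO SC and 30.1 RPM (23.1 to 38.5) in WT SC, and 39.4 RPM (33.2 to 46.4) in KO TTC and 43.8 RPM (33.7 to 56.0) in WT TTC. Clcn6 (chr4:148004259-148038813), of late endosomes of neurons, had 0.374 RPM (1 read) in KO SC and 0.477 RPM (1 read) in WT SC, and 5.47 RPM (20 reads) in KO TTC and 4.11 RPM (6 reads) in WT TTC. Both TTC libraries were above both SC libraries. The ratio for KO SC over KO TTC was 0.0684 (0.00165 to 0.428) by the exact binomial test (adjusted p = 0.00301, with dispersion 0.0809). Clcn4, an endosomal exchanger, had 26.6 RPM in KO SC, 21.9 RPM in WT SC, 27.1 RPM in KO TTC and 37.0 RPM in WT TTC. Clcn7, the lysosomal exchanger, had 6.36 RPM in KO SC, 4.29 RPM in WT SC, 4.65 RPM in KO TTC and 2.74 RPM in WT TTC. Clcn3 had 5, 7 and 8 reads in KO SC, WT SC and KO TTC and 0 in WT TTC. Only Clcn6 passed.

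None of the TRP genes passed in any of the 4 comparisons by the exact binomial test. Trpc5, a channel of growth cones, had 8.60 RPM in KO SC, 8.59 RPM in WT SC, 4.92 RPM in KO TTC and 6.85 RPM in WT TTC. Trpv2 had 5 reads (1.87 RPM) in KO SC and 9 reads (4.29 RPM) in WT SC, and 0 in KO TTC and WT TTC. Trpc4ap had 1.12 RPM (3 reads) in KO SC and 4.77 RPM (10 reads) in WT SC, and 3.83 RPM (14 reads) in KO TTC and 8.22 RPM (12 reads) in WT TTC. It was lower in KO in both pairs, with ratios of 0.235 (0.0416 to 0.914) and 0.466 (0.200 to 1.10).

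**Figure D4:**
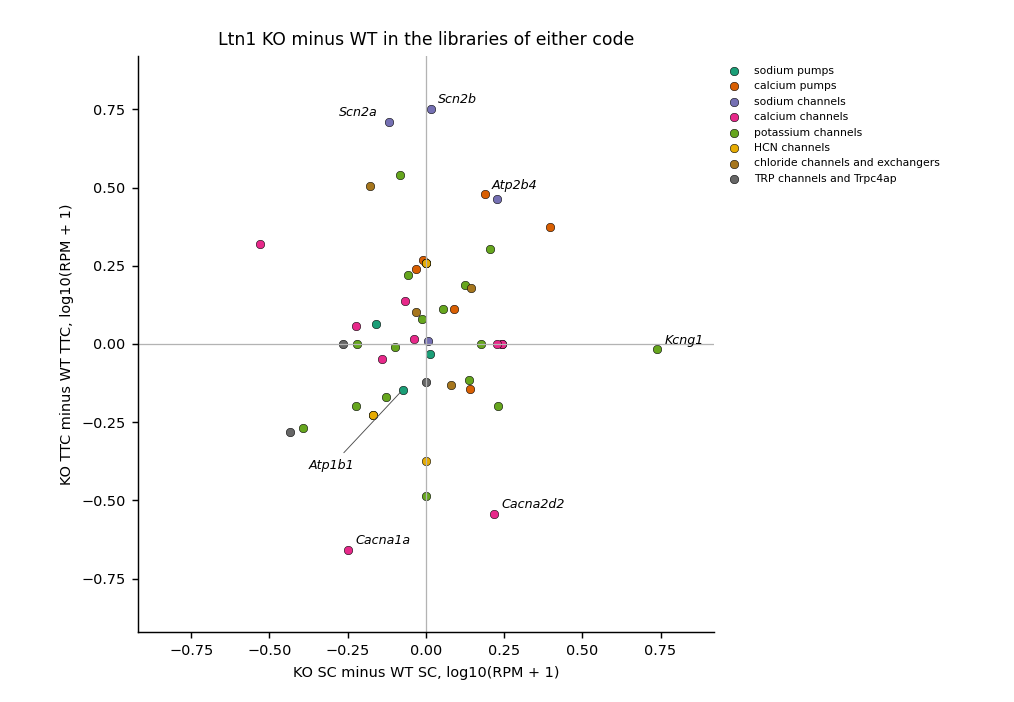
Difference in log10(RPM + 1) between KO and WT for 52 of the 58 channel and pump genes with reads, with KO SC minus WT SC on the horizontal axis and KO TTC minus WT TTC on the vertical axis. Each point is 1 gene, coloured by ion group, and names mark Scn2b and those genes shown that passed the exact binomial test in either pair. Points spread over all quadrants, with 10 of the genes shown above 0 and 10 below 0 in both pairs, and Cacna2d2 has opposite signs.

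The genotype contrasts of the SC and TTC pairs, which share no library, were set side by side. A higher value in KO in both pairs was found for 13 of the 67 genes, or 19.4%, where 19.2% of all transcripts had it. Among them were Atp2b3, Atp2b4, Atp2c1, Clcn7, Kcnj10, Kcnj3, Kcnk1, Scn2b, Scn3b and Scn8a. Some of these also rest on few reads, such as Kcnk1 with 2 against 0 in the TTC pair. A lower value in both was found for 12 genes, or 17.9%, against 22.9% of all transcripts. Among them were Atp1b1, Cacna1a, Cacna2d1, Hcn2, Kcnf1, Kcnip1, Kcnj4, Kcnma1, Kcnmb4 and Trpc4ap. Only Atp1b1 passed the exact binomial test in both pairs.

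When KO and WT were compared over both codes with edgeR's quasi-likelihood test, which left 1 residual degree of freedom, 26 of the set's genes were kept by the filter on low counts and 0 were called, as were 0 of the 2808 transcripts tested (background 0%). At an unadjusted p below 0.05 there were 2 of these genes, Atp2b4 with a log2 difference of 1.18 and Atp1b1 with -0.36 (FDR 0.691 for both). Among all 2808 transcripts tested, 60 were higher and 133 lower in KO at that level. With TMM scaling there were also 2 of the set's genes, both higher in KO, Atp2b4 (1.26) and Kcnj10 (1.05). Atp1b1 then had -0.28 and did not reach that level. Among all transcripts tested, 104 were higher and 97 lower in KO at that level with TMM scaling. No excess in the set is read from these counts.

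Genes that act with these channels and genes of other ion transport were counted in the same way. Of 23 listed partners, such as scaffolds, anchors and accessory subunits, 18 were measured. Between KO SC and WT SC 1 of 16 with reads passed (6.25%, background 7.38%), between KO TTC and WT TTC 0 of 16 (background 7.54%), between KO SC and KO TTC 2 of 17 (11.8%, background 16.6%) and between WT SC and WT TTC 0 of 14 (background 10.8%). The passing genes were Vapb, a tether protein of the endoplasmic reticulum, whose level in KO SC (30 reads) was below that in WT SC (62 reads, 29.6 RPM) and that in KO TTC (134 reads, 36.7 RPM), and Lgi1, a secreted protein that sets potassium channel density at synapses, with 8.98 RPM in KO SC against 1.09 RPM in KO TTC. Of 48 listed genes of other ion transport, 30 were measured, and 3 of 23, 1 of 24, 0 of 25 and 1 of 22 with reads passed in the same order of comparisons and against the same backgrounds. Nothing particular to either list is read from these counts. The 3 between KO SC and WT SC were all lower in KO SC: Clic4 with 0 against 15 reads, Ano10 with 3 against 17 reads and Vdac1, the main pore of the outer mitochondrial membrane, with 38.9 against 62.5 RPM. Orai2, a store-operated calcium channel, had 0 reads in KO TTC against 5 in WT TTC, and Clic4 had 15 reads in WT SC against 0 in WT TTC.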

How the data were processed

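Ribosome footprints of 4 libraries of harringtonine-treated mouse cortical neurons were analysed, with 1 library per condition. The deposited values are RPM at 1 initiation site per transcript, which the authors scaled by all reads of a library. Bowtie, SAMtools, bedtools and the build GRCm38/mm10 are named in the submitters' processing notes, without versions. The window counted, the annotation, the choice of transcripts and the treatment of reads that map to several places are not given in the sources used here, so near-identical start sites within a family may share reads. Whole reads were recovered from the RPM steps for 100% of the values (tolerance 1e-06).

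Symbols were joined through transcript identifiers from the study's ranked gene list (6349 of 6352 transcripts, 38 identifiers mended), in which Kcnp1 was read as Kcnip1. Only names were taken from that list. Gene spans are those of RefSeq on GRCm38. The set, the partner and marker lists and the tests were chosen with earlier results of these data known.

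Reads of library pairs were compared with an exact conditional binomial test, two-sided, given the total reads, with Benjamini-Hochberg adjustment over all transcripts with reads, and genotype ratios between codes with an exact conditional test of the ratio of ratios. Intervals of levels are exact Poisson and of ratios exact binomial. Since the deposited unit is RPM, edgeR was run on the recovered reads as an addition: a quasi-likelihood fit of genotype and code, and an exact test with the common dispersion of that fit (0.0475). The exact binomial test and the test of the ratio of ratios were checked on reads simulated with counting error only. The quasi-likelihood fit was checked on simulated reads with added dispersion, and edgeR's exact test was not checked in this way. Values in all libraries are given for genes called in any comparison, the 3 of each ion group with the highest mean RPM, and genes with 0 reads in 1 library and at least 10 in another. Any other gene was named with its values known. A few genes are not reported here by name and enter counts and sums only. Python 3.11.15, numpy 2.4.6, pandas 2.3.3, scipy 1.17.1, matplotlib 3.10.9, R 4.3.3 and edgeR 4.0.16 were used.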

Additional observations from a re-analysis of the deposited data

Results flagged for a closer look

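The ratio of KO to WT reads of Cacna2d2 differed between the codes. KO SC over WT SC gave 1.78 and KO TTC over WT TTC gave 0.200, a ratio of ratios of 8.92 by an exact conditional test on the reads of the 4 libraries (adjusted p = 0.0257 over all transcripts with reads). The adjusted p was 0.0252 with rescaling to the listed sites and 0.0150 when sites under a mean of 5 RPM were left out. The value rests on 25 reads in KO SC, 11 in WT SC, 6 in KO TTC and 12 in WT TTC, and spread between replicates could not be set beside it.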

How the results depend on the processing

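Replicates could not be paired or left out in turn, because each condition had 1 library, so the code was the only block available. The quasi-likelihood fit of genotype and code, which compares KO with WT within code, called 0 genes. Between KO SC and WT SC, 2 genes were called, against 1 with rescaling to the listed sites and 1 with median-of-ratios factors. Shares of all transcripts called were not counted under rescaling, under these factors or at a mean of at least 5 RPM. With edgeR's exact test and the common dispersion the 4 comparisons (KO SC over WT SC, KO TTC over WT TTC, KO SC over KO TTC, WT SC over WT TTC) gave 0, 0, 1 and 1 calls, against 2, 6, 7 and 4 by the exact binomial test. A rule of at least 2-fold on the RPM + 1 scale gave 5, 13, 10 and 16 genes in the same order, where 20.8%, 23.5%, 22.3% and 30.6% of all transcripts with reads met it. The ratio of ratios gave 1 call, against 2 with rescaling and 2 when sites under a mean of 5 RPM were left out, and the added gene was Atp1b1 both times (adjusted p = 0.0281 and 0.0485, exact conditional test). Over the 21 genes at a mean of at least 5 RPM the median difference in log10(RPM + 1) was -0.00954 for KO TTC over WT TTC and -0.0373 for WT SC over WT TTC, against 0 over all 67. Of the 19 single calls, 15 held and 4 were lost with rescaling. With median-of-ratios factors 15 held, 3 were lost and 1 reversed, Atp1b1 for KO SC over KO TTC at a ratio of 1.00. With dispersion 2 held and 17 were lost, and 15 could be tested and held at a mean of at least 5 RPM. Scn2a joined the calls for WT SC over WT TTC with rescaling (adjusted p = 0.0375, against 0.0590). The cause of these shifts was not tested. Leaving out Trpc4ap changed no count. With a median of 3 to 8 reads per gene and library, modest differences of most channel genes were below what this depth can show.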
